A study of Homo sapiens with 4 samples.

Results

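The 41 genes described here encode proteins that carry a cell through mitosis: the kinases and cyclins of mitotic entry, the spindle checkpoint, the kinetochore, the spindle motors, the cytokinesis apparatus and the mitotic chromosome itself. They were chosen by name and read as 41 of the 60651 gene IDs in a table of counts from single CHP134 cells, a human neuroblastoma line with amplified MYCN that is grown in culture. They were picked with earlier results of these data known, and MKI67, the gene of the proliferation marker Ki-67, is set against the other 40 because it had differed there. The cells had been exposed for 24 h to 1 of 4 treatments: DMSO (0.04%), the vehicle; 13cRA, which is 13-cis retinoic acid (5 µM); doxazosin (10 µM); or 13cRA at 5 µM together with doxazosin at 10 µM, called the combination. All 4 suspensions were loaded on 1 nanowell chip, only wells that imaging showed to hold 1 live cell were used, and full-length cDNA was sequenced without molecular identifiers. Each treatment was 1 sample of 1 cell line, so no difference below has a replicate error, and none was tested. Intervals are exact 95% intervals. For levels they are Poisson intervals that take reads as independent counts, which reads without molecular identifiers are not. They leave out the spread between cells, so intervals that do not meet are not a test of a difference. For shares of cells they are binomial intervals that cover only the sampling of cells.

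Entry into mitosis is driven by CDK1 bound to B-type cyclins, with the Aurora and Polo-like kinases acting on centrosomes, chromosomes and kinetochores. The spindle checkpoint holds the anaphase-promoting complex (APC/C) back until kinetochores are attached, after which CDC20 and UBE2C help to mark cyclin B for destruction and the cell divides. Most of these genes are transcribed in late S, G2 and M phase from promoters that carry CCAAT boxes, bound by NF-Y, and a cell cycle genes homology region (CHR), bound by the MuvB core with B-MYB and FOXM1 in dividing cells and with repressors in resting ones. Ki-67 coats mitotic chromosomes and keeps them apart. Retinoic acid is used in neuroblastoma because it makes many of these tumours stop dividing and differentiate, and doxazosin is a blocker of alpha-1 adrenergic receptors.

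The promoter windows show what the members share in sequence, apart from any measured value. RefSeq promoters (GRCh38.p14, 250 bases before to 50 bases after each start site) were at hand for 35 of the 41 members. The CHR, searched as TTTGAA or TTCGAA on both strands, was found in 29 of these 35 (82.9%) and in 19.5% of the 27305 genes with a window. CCAAT, on both strands, was found in 27 members (77.1%) against 39.7% of all genes. At least 2 CCAAT matches were found in 20 members (57.1%) against 12.9%, and 24 members (68.6%) held both motifs in 1 window against 7.85% of genes. A gene with several start sites was counted if any of its windows matched. These matches are letters, not shown binding sites. The 120 bases before the start site, on the gene's strand, are given here for 5 members on which the comparisons below turn: MKI67, the 1 member that was higher with 13cRA by the fold used, CCNB2, CKS1B and PLK1, which were lower, and CENPF, the member closest to MKI67 over single cells. Capitals mark CCAAT (or ATTGG, its other strand) and the CHR.
MKI67: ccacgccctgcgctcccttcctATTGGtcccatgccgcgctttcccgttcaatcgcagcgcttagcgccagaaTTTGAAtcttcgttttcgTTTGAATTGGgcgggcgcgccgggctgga
CCNB2: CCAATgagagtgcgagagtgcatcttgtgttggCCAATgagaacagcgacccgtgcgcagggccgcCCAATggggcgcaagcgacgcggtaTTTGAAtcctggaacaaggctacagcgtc
CKS1B: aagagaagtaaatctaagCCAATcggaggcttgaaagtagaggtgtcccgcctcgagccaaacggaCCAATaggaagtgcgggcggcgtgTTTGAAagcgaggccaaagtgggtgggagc
PLK1: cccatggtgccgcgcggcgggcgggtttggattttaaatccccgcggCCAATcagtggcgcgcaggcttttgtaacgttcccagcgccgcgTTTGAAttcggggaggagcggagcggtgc
CENPF: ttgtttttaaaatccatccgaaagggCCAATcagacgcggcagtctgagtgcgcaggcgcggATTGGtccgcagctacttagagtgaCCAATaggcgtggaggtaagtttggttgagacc
The MKI67 stretch (chr10:128126424-128126543, minus strand) held TTTGAA starting 47 and 29 bases before the start site, and the second of these shares its last base with an ATTGG. In the CCNB2 (chr15:59105026-59105145, plus strand), CKS1B (chr1:154974561-154974680, plus strand) and PLK1 (chr16:23678769-23678888, plus strand) stretches, a single TTTGAA began 29, 30 and 29 bases before the start site. The CENPF stretch (chr1:214603075-214603194, plus strand) held CCAAT boxes only, and its TTTGAA lay 41 bases past the start site, outside the stretch given. Not all entry genes held both motifs: no CHR match was found in the windows of CCNB1 and CCNA2.

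The libraries were not alike in depth. Of 1287 cells, 1197 passed the filter of at least 500 detected genes and at most 25% mitochondrial counts, and each was thinned at random to 34000 counts, which 1082 cells could give: 328 DMSO, 249 13cRA, 235 doxazosin and 270 combination cells. Before thinning, the median counts per cell ran from 59200.5 in 13cRA to 221558 in the combination, and 69 13cRA cells were too shallow to thin, against 25 DMSO, 4 doxazosin and 17 combination cells. At equal depth the 13cRA cells still held fewer genes (median 3889) than DMSO (4679), doxazosin (4786) or combination cells (4699), and the mitochondrial share of counts was 13.8% in 13cRA against 10.3 to 11.0% in the other libraries. Levels below are CPM, thinned sums scaled to 1000000 counts per library, differences are log2 ratios of CPM + 1, and a difference of at least 0.5 is called past the fold. Genes were compared where their mean over the 4 libraries was at least 10 CPM, which held for 7864 genes and for 40 of the 41 members. Among the noradrenergic neuroblastoma markers GATA3, HAND2 and MYCN were present in every library, while TH was at 0 counts in all 4 and DBH had at most 2 counts in any. Some of these markers moved with 13cRA: ISL1 stood at 49.5 CPM with DMSO, 11.9 with 13cRA, 53.1 with doxazosin and 16.4 with both drugs, and GATA2 at 13.5, 6.26, 11.5 and 3.49. TBX2 (1.34), GATA3 (0.52) and MYCN (0.52) had positive 13cRA log2 differences, HAND2 (0.31) a smaller one, and the part of these markers in the results was not tested. Of the marker lists for other cells (epithelial, endothelial, leukocyte, fibroblast and Schwann), none had a gene with a mean of 10 CPM. The endothelial sum was 1.88 CPM in DMSO and doxazosin, 20.0 in 13cRA and 12.4 in the combination. CLDN5 gave 17.2 and 10.8 CPM of the latter 2, KDR, VWF, CDH5 and PECAM1 were near 0 throughout, and its part in the results was not tested.

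With 13cRA alone, 15 of the 40 members compared were lower than in DMSO past the fold, a share to be read against 16.8% of all genes compared. In the other direction MKI67 alone was higher past the fold, against 14.0% of all genes. The sign was negative for 32 members, against 53.5% of all genes, and the median difference was -0.26 against -0.043 for all genes. By level, 13cRA was the lowest of the 4 libraries for 27 members and the highest for 5 (MKI67, SMC4, CENPE, CENPF and GTSE1). Its counting interval lay below that of DMSO for 27 members and above it for the first 4 of those 5. Library order and intervals were not counted over all genes compared, so they have no background share here. These counts rest on comparing all thinned cells. Among cells with 4000 to 4600 genes at equal depth the 13cRA median was 0.30 above DMSO, against 0.0055 for all genes. There 2 members were lower and 13 higher past the fold, beside 12.8% and 15.0% of all genes.

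**Figure D1:**
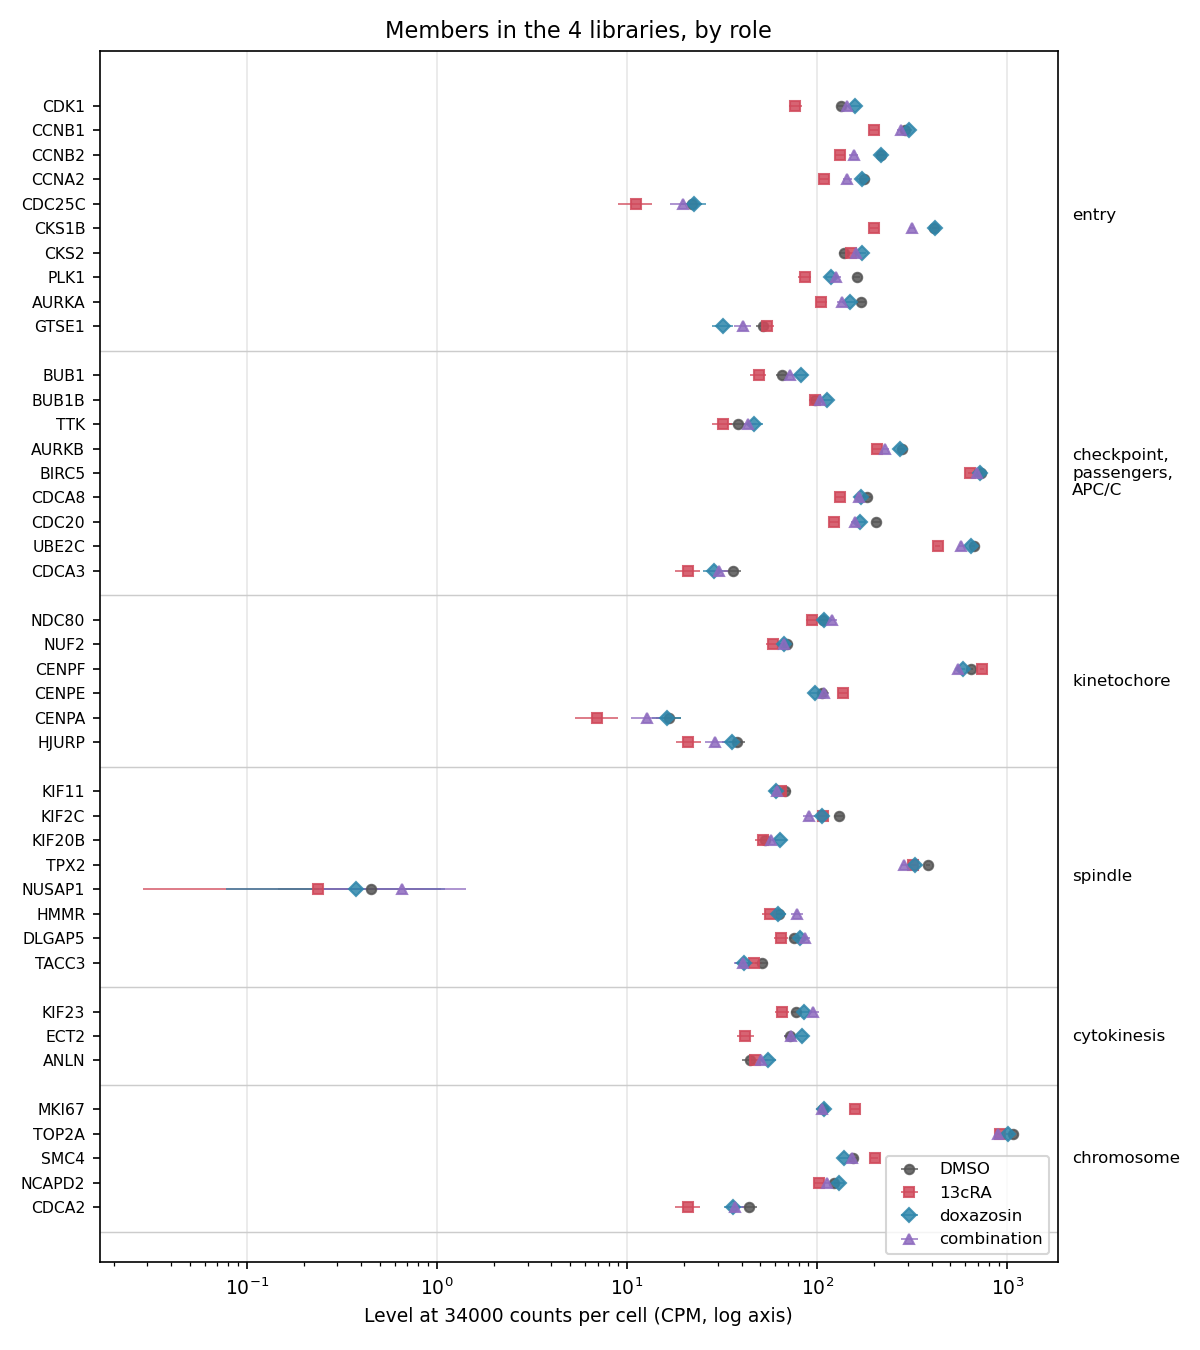
Level of each of the 41 members (CPM at 34000 counts per cell, log axis) in DMSO (grey circles), 13cRA (red squares), doxazosin (blue diamonds) and the combination (purple triangles), grouped by role. Bars are exact 95% Poisson intervals, which take reads as independent counts and leave out the spread between cells. Among the 40 members compared, the 13cRA square is the leftmost point for 27 and lies to the right of the others for MKI67, SMC4, CENPE, CENPF and GTSE1. NUSAP1, which was not compared, is near 0 in every library.

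The mitotic entry genes had the lowest median difference of the 6 role groups, -0.70. Of these genes 8 of 10 were lower with 13cRA past the fold, beside 16.8% of all genes compared. CDK1, the kinase that triggers mitosis, stood at 134 CPM with DMSO, 76.7 with 13cRA, 158 with doxazosin and 143 with both drugs. The 13cRA library alone was low, at a log2 difference of -0.80 from DMSO, and its interval (70.9 to 82.8 CPM) did not meet that of DMSO (128 to 141 CPM). CKS1B, a small subunit that binds cyclin-dependent kinases, stood at 412 CPM with DMSO, 200.1 with 13cRA, 417 with doxazosin and 316 with both drugs. Its 13cRA level was the lowest and the combination lay between 13cRA and the other libraries, with log2 differences from DMSO of -1.04 and -0.38. Its close relative CKS2 did not share this order, with 138 CPM with DMSO, 150.4 with 13cRA, 171 with doxazosin and 161 with both drugs, where DMSO was the lowest library.

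All 3 cyclins were lowest with 13cRA. CCNB1, the main cyclin B of entry, stood at 289 CPM with DMSO, 199 with 13cRA, 303 with doxazosin and 275 with both drugs, a log2 difference of -0.54 for 13cRA against DMSO. CCNB2, its second B-type partner, stood at 216 CPM with DMSO, 132 with 13cRA, 217 with doxazosin and 156 with both drugs, where both libraries with 13cRA were below both without it. CCNA2, the cyclin of S and G2 phase, showed the same order with 176 CPM with DMSO, 109 with 13cRA, 171 with doxazosin and 144 with both drugs. CDC25C, the phosphatase that activates CDK1, was a low gene at 21.9 CPM with DMSO, 11.1 with 13cRA, 22.4 with doxazosin and 19.6 with both drugs, and its 13cRA interval (8.97 to 13.6 CPM) lay below the other libraries' levels.

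Among the entry kinases, PLK1, the Polo-like kinase, stood at 161 CPM with DMSO, 85.9 with 13cRA, 118 with doxazosin and 125 with both drugs. Every treated library was below DMSO for this gene, 13cRA furthest, with log2 differences of -0.90, -0.45 and -0.36 for 13cRA, doxazosin and the combination. AURKA, the centrosomal Aurora kinase, stood at 170.3 CPM with DMSO, 105 with 13cRA, 149.6 with doxazosin and 135 with both drugs, again with DMSO highest and 13cRA lowest. GTSE1, a microtubule-tip protein of G2 and M phase, was, like CKS2, not below DMSO with 13cRA, at 51.6 CPM with DMSO, 54.2 with 13cRA, 31.9 with doxazosin and 40.7 with both drugs. Here 13cRA and DMSO had overlapping intervals and the libraries with doxazosin were lower.

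Of the 9 checkpoint, chromosomal passenger and APC/C members, 3 were lower with 13cRA past the fold, beside 16.8% of all genes compared. The median difference of the 9 was -0.43. CDC20, the activator of the APC/C, stood at 204 CPM with DMSO, 122 with 13cRA, 168 with doxazosin and 158 with both drugs, with a log2 difference of -0.73 for 13cRA. UBE2C, the ubiquitin-conjugating enzyme that serves it, stood at 664 CPM with DMSO, 430.3 with 13cRA, 645 with doxazosin and 574 with both drugs, a difference of -0.62. CDCA3, a factor in the destruction of the entry inhibitor WEE1, stood at 36.0 CPM with DMSO, 20.9 with 13cRA, 28.5 with doxazosin and 30.6 with both drugs, a difference of -0.75. The 13cRA level was the lowest for all 3.

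The chromosomal passengers differed less. AURKB, the kinase of that complex, stood at 279.8 CPM with DMSO, 207 with 13cRA, 273 with doxazosin and 229 with both drugs, with 13cRA lowest. BIRC5, which encodes survivin, stood at 724 CPM with DMSO, 637 with 13cRA, 722 with doxazosin and 694 with both drugs, so that 13cRA was -0.18 on the log2 scale from DMSO and the other libraries closer still. CDCA8, which encodes borealin, stood at 184 CPM with DMSO, 131 with 13cRA, 169 with doxazosin and 165 with both drugs, a difference of -0.48 that falls just short of the fold. Neither checkpoint kinase passed the fold. BUB1, which recruits checkpoint proteins to the kinetochore, stood at 65.4 CPM with DMSO, 49.1 with 13cRA, 82.6 with doxazosin and 72.1 with both drugs, a 13cRA difference of -0.40. TTK, the kinase that starts checkpoint signalling, stood at 38.1 CPM with DMSO, 31.8 with 13cRA, 46.8 with doxazosin and 43.2 with both drugs, a difference of -0.25. For both, 13cRA was lowest and doxazosin highest. BUB1B, the checkpoint protein BubR1, stood at 96.9 CPM with DMSO, 97.0 with 13cRA, 112 with doxazosin and 103 with both drugs, with DMSO and 13cRA level and 10.2% of its exonic bases shared with the readthrough gene BUB1B-PAK6 on the same strand.

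The kinetochore and centromere members split. CENPA, the histone H3 variant that marks the centromere, had the lowest 13cRA difference of all members, -1.14, from 16.6 CPM with DMSO, 6.97 with 13cRA, 16.1 with doxazosin and 12.7 with both drugs. It was also among the lowest genes, so its 13cRA level rests on few counts (5.31 to 8.99 CPM). HJURP, the chaperone that loads CENPA, stood at 38.0 CPM with DMSO, 21.0 with 13cRA, 35.5 with doxazosin and 29.1 with both drugs, a 13cRA difference of -0.83. These 2 partners were the 2 members of the group of 6 that passed the fold, beside 16.8% of all genes compared that were lower past it. NDC80 and NUF2 together form the microtubule-binding arm of the kinetochore. NDC80 stood at 108 CPM with DMSO, 94.1 with 13cRA, 109 with doxazosin and 119 with both drugs, a 13cRA difference of -0.19. NUF2 stood at 69.4 CPM with DMSO and 58.8 with 13cRA, a difference of -0.23, so both partners were lowest with 13cRA and short of the fold.

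CENPF and CENPE went the other way. CENPF, a large outer kinetochore and nuclear matrix protein, stood at 646 CPM with DMSO, 737 with 13cRA, 583 with doxazosin and 551 with both drugs. CENPE, the kinesin that moves chromosomes to the spindle equator, stood at 106 CPM with DMSO, 136 with 13cRA, 97.9 with doxazosin and 109 with both drugs. For both, 13cRA was the highest library and its interval lay above that of DMSO, with log2 differences of 0.19 and 0.35.

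None of the 7 spindle motor and microtubule members compared passed the fold with 13cRA, beside 16.8% of all genes lower and 14.0% higher. All 7 were below DMSO (median difference -0.17, range -0.27 to -0.025), as were 53.5% of all genes compared. TPX2, which activates AURKA on the spindle, stood at 383 CPM with DMSO, 317 with 13cRA, 328 with doxazosin and 287 with both drugs. KIF2C, a kinesin that takes microtubule ends apart, stood at 129.6 CPM with DMSO, 107 with 13cRA, 106 with doxazosin and 90.6 with both drugs. In both genes the combination, not 13cRA, was the lowest library. KIF11, the motor that pushes spindle poles apart, stood at 67.6 CPM with DMSO, 64.4 with 13cRA, 61.0 with doxazosin and 61.5 with both drugs, with intervals that overlapped across the 4 libraries. HMMR, a spindle-assembly protein, stood at 63.2 CPM with DMSO, 56.2 with 13cRA, 62.5 with doxazosin and 78.1 with both drugs, the combination highest. KIF20B, a kinesin of late mitosis and cytokinesis, stood at 52.9 CPM with DMSO, 52.0 with 13cRA, 63.5 with doxazosin and 57.0 with both drugs, with DMSO and 13cRA level. DLGAP5, a protein of spindle microtubule bundles, stood at 75.8 CPM with DMSO, 64.8 with 13cRA, 80.9 with doxazosin and 85.9 with both drugs, 13cRA lowest at a difference of -0.22. TACC3, which steadies kinetochore fibres, stood at 51.0 CPM with DMSO, 46.3 with 13cRA, 41.4 with doxazosin and 40.7 with both drugs, and its intervals overlapped between DMSO and 13cRA. NUSAP1, a microtubule bundler, could not be compared: it had 5 counts with DMSO, 2 with 13cRA, 3 with doxazosin and 6 with both drugs. In GENCODE 29, 62.2% of its exonic bases are shared with AC087721.2 on the same strand, and how shared reads were counted is not given in the sources used here.

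Of the 3 cytokinesis members, ECT2, the exchange factor that activates RhoA at the cell equator, was lower with 13cRA past the fold (-0.77) at 72.2 CPM with DMSO, 41.9 with 13cRA, 82.7 with doxazosin and 72.4 with both drugs. The combination was level with DMSO for this gene. Of all genes compared, 16.8% were lower with 13cRA past the fold. KIF23, a motor of the central spindle, stood at 77.8 CPM with DMSO, 65.4 with 13cRA, 85.4 with doxazosin and 95.2 with both drugs, where 13cRA was lowest and the combination highest. ANLN, the scaffold of the contractile ring, stood at 44.3 CPM with DMSO, 47.4 with 13cRA, 55.4 with doxazosin and 50.5 with both drugs, with overlapping intervals in DMSO and 13cRA.

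Among the 5 chromosome members, TOP2A and MKI67 went apart. TOP2A, the topoisomerase that untangles sister chromatids, stood at 1068 CPM with DMSO, 916 with 13cRA, 1009 with doxazosin and 898 with both drugs, a 13cRA difference of -0.22. MKI67 (ENSG00000148773.14, chr10:128096659-128126385, minus strand, 15 exons in its longest GENCODE 29 transcript on GRCh38) stood at 107 CPM with DMSO, 159 with 13cRA, 108 with doxazosin and 105 with both drugs. Its interval was 101 to 113 CPM in DMSO and 151 to 168 CPM in 13cRA, while the libraries with doxazosin overlapped DMSO. The 13cRA difference was 0.57, the highest of the 40 members, against a median of -0.27 for the other 39. That call depends on the scaling, the depth and the cells used. The difference was 0.43 with TMM factors, 0.45 with DESeq2 size factors, 0.40 at 60000 counts per cell and 0.38 in cells with up to 120000 counts. It was 0.499 both without the cell filter and in the window of 4000 to 4600 genes, so that all 6 values lay below the fold and above 0.

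The other chromosome members lay on both sides. SMC4, a core condensin subunit, stood at 155 CPM with DMSO, 200.2 with 13cRA, 139 with doxazosin and 152 with both drugs, with 13cRA highest at a difference of 0.37. TRIM59 and IFT80 overlap 25.6% of its exonic bases on the opposite strand, and the strand setting of the counting is not given in the sources used here. NCAPD2, another condensin subunit, stood at 122 CPM with DMSO, 102 with 13cRA, 129.9 with doxazosin and 113 with both drugs, a difference of -0.25, on the opposite side of DMSO from SMC4. CDCA2, which brings protein phosphatase 1 to chromatin at mitotic exit and binds there like Ki-67, stood at 43.9 CPM with DMSO, 20.9 with 13cRA, 36.3 with doxazosin and 36.9 with both drugs, a difference of -1.04. The same TMM factors changed the scale of 13cRA relative to DMSO by -0.14 (log2), which turned the small positive values of CKS2, GTSE1, BUB1B and ANLN negative and left MKI67, SMC4, CENPE and CENPF above 0.

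With doxazosin alone 1 member passed the fold over all thinned cells. GTSE1 was the 1 member lower past the fold (-0.68), against 4.20% of all genes compared, and none was higher, against 3.10%. In the window of 4000 to 4600 genes 6 were lower and 5 higher, beside 15.8% and 12.4% of all genes. The median difference was -0.037, and it turned to 0.14 in cells with up to 120000 counts. PLK1 came next among the lower members (-0.45), and BUB1 had the highest difference (0.33). MKI67 was level with DMSO at 0.013.

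Over all thinned cells the combination had 1 member past the fold from DMSO. KIF2C was lower past the fold (-0.51), against 6.82% of all genes compared, and no member was higher past it, against 6.90%. The count of lower members was 6 without thinning, and 13 in the window of 4000 to 4600 genes, beside 14.9% of all genes there. The share of all genes was not counted without thinning. The median difference over all thinned cells was -0.14. CCNB2 (-0.47) and TPX2 (-0.41) followed KIF2C, HMMR had the highest value (0.30), and MKI67 was at -0.022. Against doxazosin alone the combination had no member past the fold in either direction, beside 5.76% of genes lower and 6.52% higher. In the window of 4000 to 4600 genes 13 members were lower than with doxazosin, beside 15.7% of all genes. Without thinning 2 were, again with no share of all genes counted. Over all thinned cells the median was -0.11, and the range ran from -0.47 for CCNB2 to 0.34 for GTSE1.

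Set against 13cRA alone, the combination was higher past the fold for 10 members, beside 15.5% of all genes compared, and lower for MKI67 alone, beside 13.7%. The median difference was 0.33 against 0.028 for all genes. CDK1 had the highest value (0.89), then CDCA2 (0.79), CENPA (0.79), ECT2 (0.77) and CDC25C (0.77). MKI67 had the lowest, -0.59, and CENPF (-0.42), GTSE1 (-0.40), SMC4 (-0.40) and CENPE (-0.33) were next. This comparison shares the 13cRA library with that against DMSO, so a low or high value of that 1 library enters both with opposite sign. For 19 of the 40 members the combination level lay between DMSO and 13cRA. This was not counted over all genes compared, so it has no background share here.

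**Figure D2:**
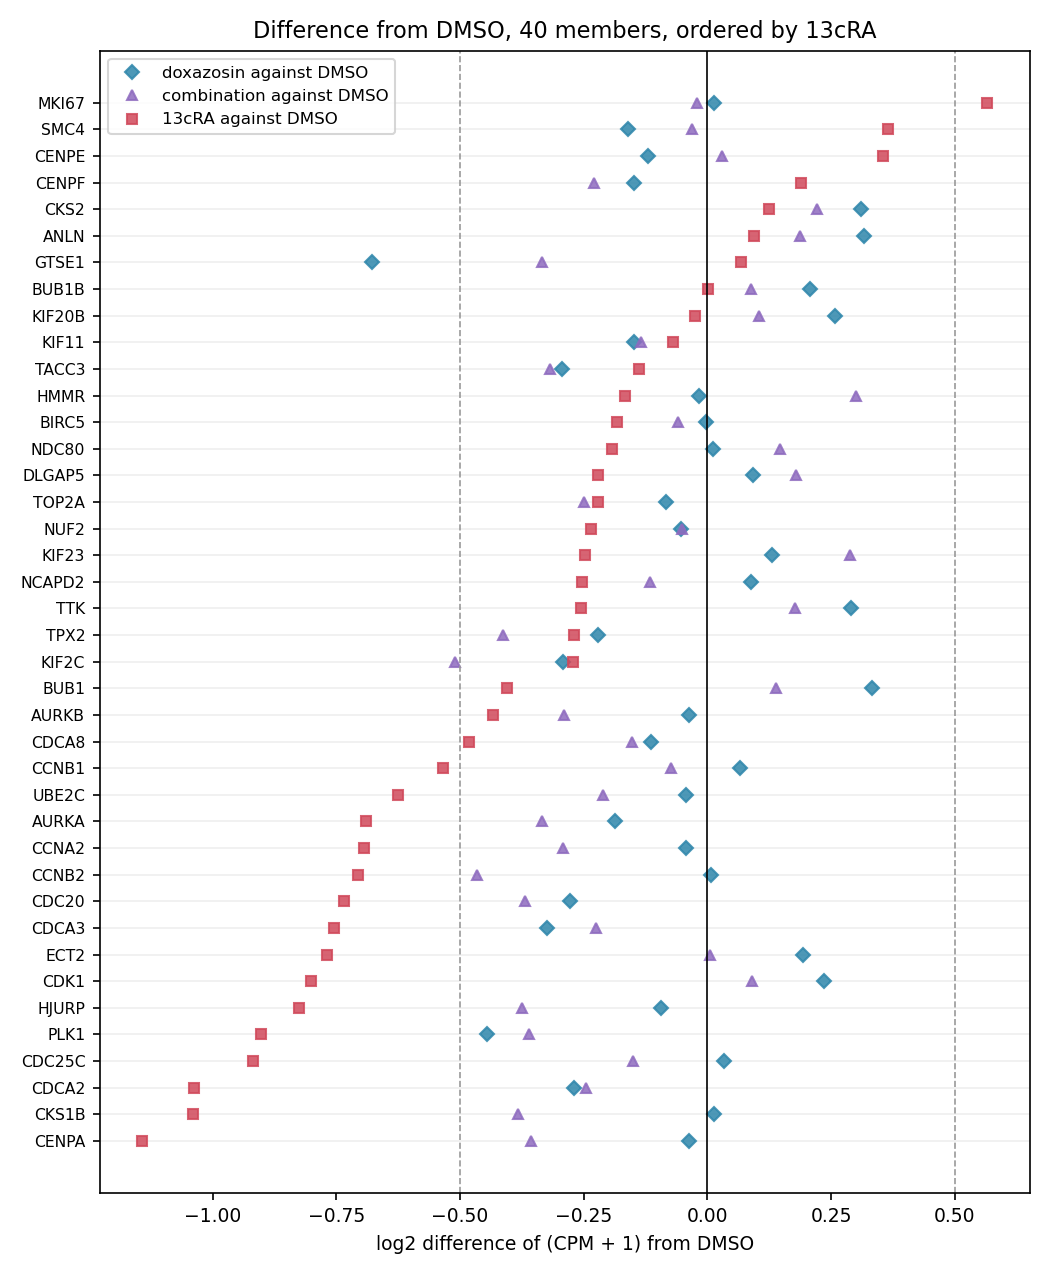
Log2 difference of (CPM + 1) from DMSO for the 40 members compared, ordered by their 13cRA value (red squares), with doxazosin (blue diamonds) and the combination (purple triangles); dashed lines mark 0.5 in either direction and all 3 comparisons share the DMSO library. The red squares run from -1.14 for CENPA to 0.57 for MKI67, and outside 13cRA only GTSE1 with doxazosin and KIF2C with the combination pass a dashed line.

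A library level is the product of the share of cells with a count and the mean count in those cells, and with 13cRA these parts went different ways. All 40 members had a smaller share of cells with a count in 13cRA than in DMSO, and 13cRA was the lowest of the 4 libraries for all 40. A smaller share was also seen for 88.7% of all genes compared, in cells with fewer genes at equal depth. The median change was -15.8 percentage points for the members and -9.62 for all genes. For 35 members the intervals did not meet. Neither this count nor that of the lowest library was made over all genes compared. CCNA2 went from 81.7% of cells (77.1 to 85.7%) to 49.0% (42.6 to 55.4%), and CDC20 from 81.1% to 49.4%. Without thinning these shares were 86.4% and 54.1% for CCNA2, and 87.3% and 55.7% for CDC20. Genes counted in nearly every DMSO cell had little room: TOP2A went from 99.1% to 94.0% and CENPF from 98.5% to 94.0% (99.4% to 97.2% and 99.2% to 96.2% without thinning).

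MKI67 had the smallest change of all 40. A count was seen in 69.2% of DMSO cells (63.9 to 74.2%), 67.5% of 13cRA cells (61.3 to 73.3%), 77.0% of doxazosin cells (71.1 to 82.2%) and 70.0% of combination cells (64.2 to 75.4%). The 4 intervals overlap. Without thinning the shares were 77.3%, 69.2%, 86.6% and 78.7%, in the same order, with the shallow 13cRA library lowest. AURKA, with a similar DMSO share (65.5%), was at 49.8% in 13cRA, and CDK1 went from 70.4% to 45.4%. Unthinned, AURKA was at 77.3% and 55.3%, and CDK1 at 79.3% and 50.6%.

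The part of the MKI67 level that was higher with 13cRA was the mean count in cells with a count. It was 5.26 counts with DMSO, 8.01 with 13cRA, 4.77 with doxazosin and 5.12 with both drugs, so 13cRA alone was high. This mean was higher in 13cRA than in DMSO for 26 of the 40 members, with a median log2 ratio of 0.15. The same was not counted over all genes compared, so it is not read as particular to the members. ANLN (3.09 to 4.77 counts) and TTK (3.06 to 4.41) had ratios like that of MKI67, but fewer of their cells had a count. CKS1B had the lowest ratio, from 14.2 to 8.51 counts. A level higher past the fold together with a smaller share of cells was found in 5.53% of all genes compared.

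**Figure D3:**
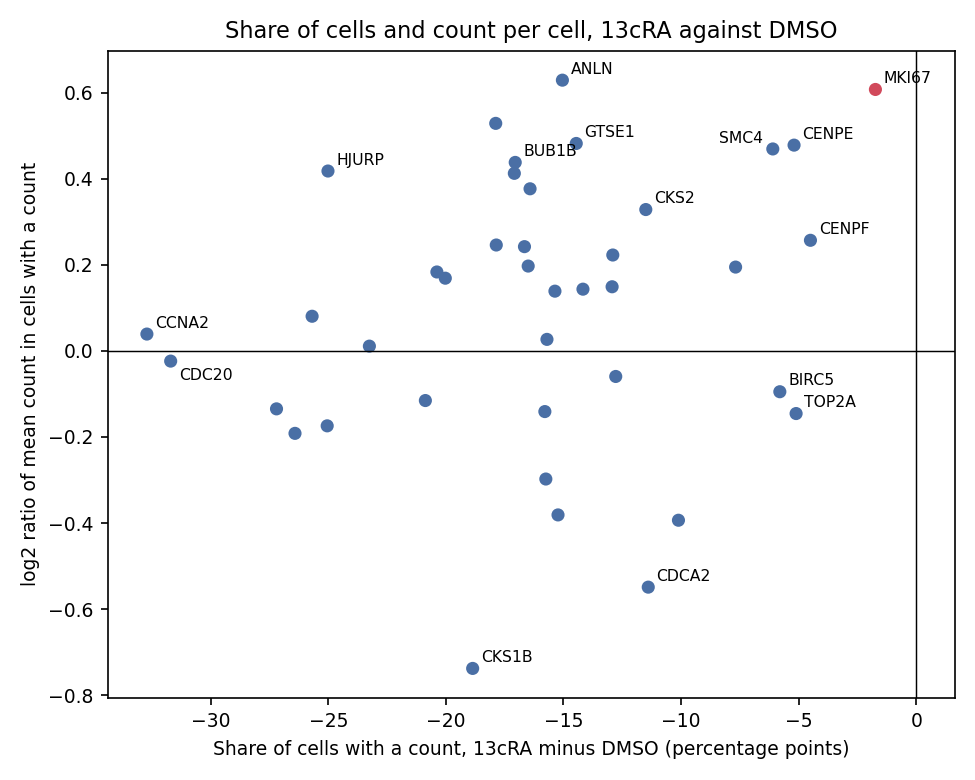
For the 40 members compared, the change in the share of cells with a count (13cRA minus DMSO, percentage points, horizontal) against the log2 ratio of the mean count in cells with a count (vertical), with MKI67 in red. All points lie left of 0, from -32.7 for CCNA2 to -1.74 for MKI67, and MKI67 sits at the upper right, near SMC4, CENPE and CENPF.

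Over single cells the MKI67 counts spread further with 13cRA. The median cell held 2 counts with DMSO, 3 with 13cRA, 3 with doxazosin and 2 with both drugs. At the 90th percentile the values were 9, 15, 8 and 10 counts, and the highest cells held 25, 44, 37 and 26. The upper part of the 13cRA library was thus above the others, and the difference from DMSO remained 0.51 when the highest 5% of cells of each library were left out for each gene. As a share of all counts of the 41 members, MKI67 made up 1.42% with DMSO (1.34 to 1.50%), 2.58% with 13cRA (2.44 to 2.72%), 1.48% with doxazosin (1.38 to 1.58%) and 1.57% with both drugs (1.48 to 1.68%). The other 40 members summed to 7454, 6007, 7194 and 6592 CPM in the same order.

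Cells were then grouped by the summed counts of the other 40 members, at the cuts that divide DMSO cells into equal parts (175 and 255 counts). These are ranges of a score, not cell types, and 8 to 28 cells of each library lie within 5% of a cut. The low range held 33.8% of DMSO cells, 50.2% of 13cRA cells, 44.8% of combination cells and 94 of the 235 doxazosin cells. The high range held 32.9% of DMSO, 28.1% of 13cRA, 30.0% of combination and 35.3% of doxazosin cells. The middle range held 33.2% of DMSO, 21.7% of 13cRA, 25.2% of combination and 24.7% of doxazosin cells. Every treated library thus had more cells with a low mitotic sum and fewer in the middle than DMSO, 13cRA the furthest.

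Within each range MKI67 was higher in 13cRA than in DMSO. In the low range it stood at 67.8 CPM in DMSO and 80.7 in 13cRA, in the middle range at 94.4 and 206, and in the high range at 160.1 and 262. The low-range intervals overlapped (59.8 to 76.7 CPM in DMSO and 72.4 to 89.7 in 13cRA). There 51.4% of DMSO and 51.2% of 13cRA cells had a MKI67 count. The MKI67 log2 differences were 0.25, 1.12 and 0.71, and 0.56, 0.83 and 0.74 when the cuts were taken from all thinned cells. The doxazosin values (70.4, 102 and 154.5 CPM) were near DMSO in every range, and the combination stood at 52.0, 130.2 and 164 CPM. TOP2A, with the same cuts, differed by -0.40, 0.088 and 0.053, and CKS1B by -1.13, -1.16 and -0.64. At the DMSO cuts MKI67, CENPE (0.92, 0.59 and 0.45) and CENPF (0.25, 0.48 and 0.30) were thus above DMSO in each range. CKS1B, CDK1 and CCNB1 were below it in each. The sums of the other 40 members were not equal inside a range: their 13cRA log2 differences were -0.34 in the low, 0.018 in the middle and -0.15 in the high range. TOP2A, CENPE, CENPF, CKS1B, CDK1 and CCNB1 are part of the sum that made the ranges, and MKI67 is not.

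**Figure D4:**
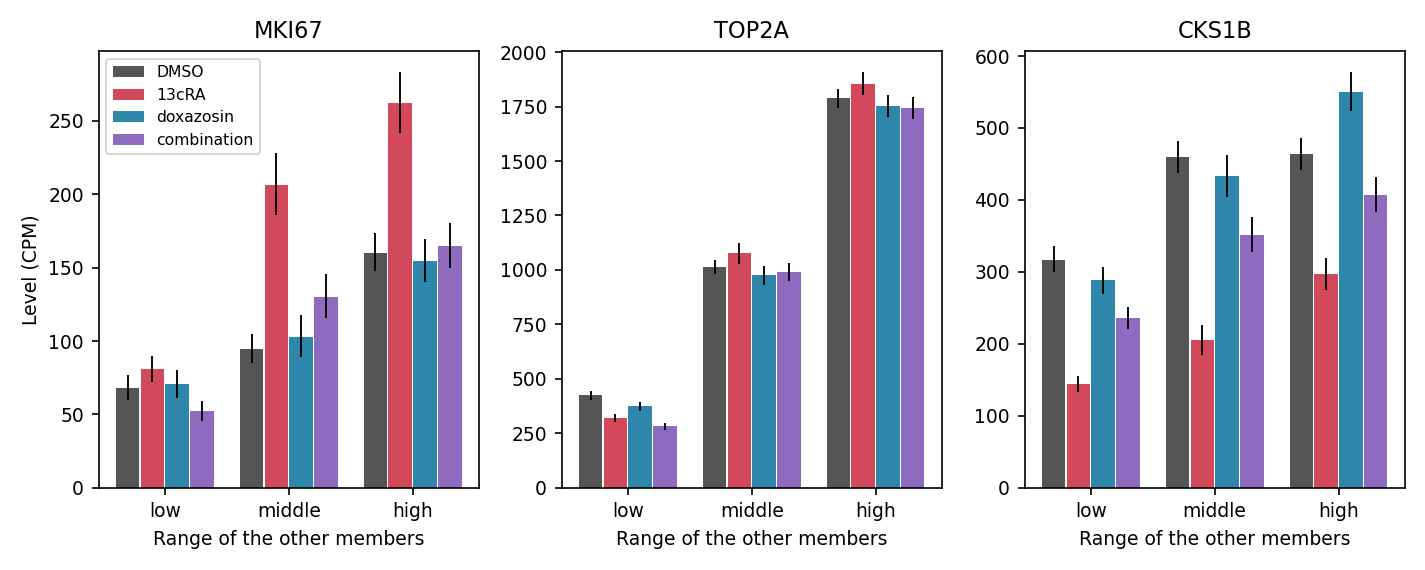
Level (CPM, axes from 0) of MKI67, TOP2A and CKS1B in cells grouped by the summed counts of the 40 members other than MKI67 into the low, middle and high ranges cut at 175 and 255 counts, for DMSO (grey), 13cRA (red), doxazosin (blue) and the combination (purple); bars are summed levels with exact 95% Poisson intervals. The red MKI67 bars reach 206 and 262 CPM in the middle and high ranges against 94.4 and 160.1 for DMSO, while the red CKS1B bars are the lowest in every range.

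MKI67 did keep company with the other members from cell to cell. The Spearman rho between its counts and the sum of the other 40 was 0.41 over 328 DMSO cells, 0.50 over 249 13cRA cells, 0.45 over 235 doxazosin cells and 0.49 over 270 combination cells. Averaged over the 4 libraries, the genes most like it among 7863 were CENPF (0.42), TOP2A (0.40), HMGB2 (0.38), TPX2 (0.38) and AURKB (0.36). All but HMGB2, a chromatin protein of dividing cells, are members. In all, 34 of the 39 other members were among the 100 highest genes, CKS1B (0.21) and CDK1 (0.19) among the lower of them. The cells of a library share a chip, a depth and their processing, so these values are descriptions without a test.

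Transcript length moved with the 13cRA difference. MKI67 has the longest annotated transcript of the members, 12678 bases, followed by CENPF (10307), CENPE (8612) and KIF20B (6419). Over the 40 members the Spearman rho between length and the 13cRA difference was 0.49, and 0.44 without MKI67. Over 7558 coding genes it was 0.22. The median 13cRA difference of coding genes was -0.13 for transcripts up to 1500 bases (597 genes) and lowest, -0.20, from there to 2500 bases (1394 genes). It was 0.18 above 9000 bases (548 genes), and 18.2% of those longest genes were at or above MKI67. Short members held most of the low values, as in CKS1B (1166 bases) and CENPA (1452), but CKS2 (613 bases) is the shortest and was slightly above DMSO.

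Members of like length still differed. PLK1 (4135 bases) and ECT2 (4406) were far below the median of coding genes of their length class (-0.0065), and SMC4 (5471) above it. For the combination against 13cRA the rho with length was -0.41 over the members and -0.18 over coding genes. GC content of the transcript moved with some of the differences. For doxazosin against DMSO rho was -0.46 over members and -0.44 over coding genes, and for the combination against DMSO -0.63 and -0.31. For the combination against 13cRA it was -0.014 and -0.30, and against doxazosin -0.19 and 0.042. For 13cRA against DMSO it was -0.34 and 0.082. The part that length, GC content or RNA quality has in the MKI67 value was not tested. Per kilobase of its longest transcript, MKI67 was a low member at 8.45 CPM per kb in DMSO, with only KIF20B (8.24) lower among the 40 compared, and UBE2C (727) and CKS1B (354) the highest.

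**Figure D5:**
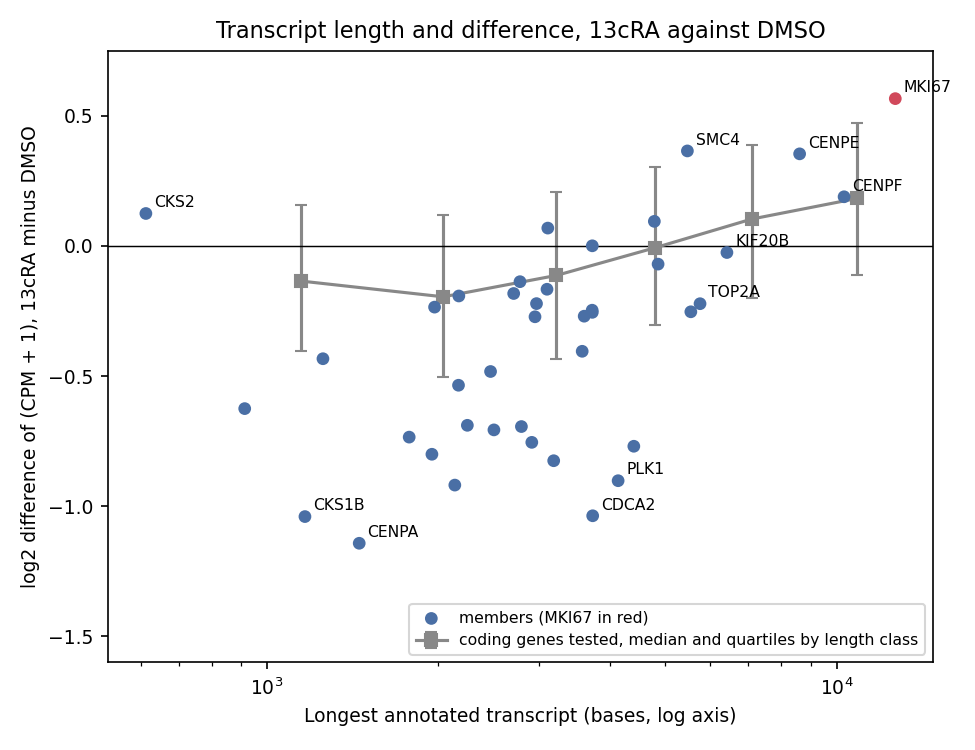
Log2 difference of (CPM + 1), 13cRA minus DMSO, against the longest annotated transcript (bases, log axis) for the 40 members compared (blue, MKI67 red), with the median and quartiles of the coding genes in each of 6 length classes (grey). The grey medians run from -0.20 in the class of 1500 to 2500 bases to 0.18 in the longest class. Most short members lie below them, and MKI67 at 12678 bases lies above the upper quartile of its class.

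The number of genes detected per cell also moved with the members, and the sign of the 13cRA comparison was not the same at a matched number. At equal depth only 2 of the 249 13cRA cells held more than 4600 genes, against 205 of 328 DMSO cells. Cells with 4000 to 4600 genes (104 DMSO, 95 13cRA, 37 doxazosin and 78 combination cells) are therefore a gene-poor part of the other libraries but a gene-rich part of 13cRA. Inside that window the summed members stood at 6338 CPM with DMSO, 7326 with 13cRA, 6133 with doxazosin and 4683 with both drugs, against 7562, 6166, 7303 and 6697 over all thinned cells. The order of DMSO and 13cRA was thus turned.

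For single members the window gave a 13cRA difference of 0.56 for CDK1, which had been below DMSO over all cells, whereas CKS1B (-0.63) and PLK1 (-0.42) stayed below. MKI67 remained above DMSO at 0.499, just short of the fold, but as the 14th of 40 members instead of the first. The median of the members against 13cRA was -0.68 for the combination, where it had been 0.33 over all cells. In the window 24 members were lower and none higher past the fold, beside 18.6% and 14.3% of all genes. Within each library the Spearman rho between the members' sum and the number of genes was 0.18 with DMSO, 0.31 with 13cRA, 0.18 with doxazosin and 0.37 with both drugs. The relation did not run one way: cells below the window had a sum of 6639 CPM with DMSO (19 cells), 5434 with 13cRA (152), 7717 with doxazosin (16) and 5042 with both drugs (23), above the sum inside the window in every library but 13cRA. Whether fewer genes per 13cRA cell reflect the cells or their libraries was not tested, and with 1 sample per treatment the 2 cannot be told apart.

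Further genes of the same pathways, 123 of 132 listed genes with enough counts, gave 31 lower with 13cRA past the fold and 5 higher, to be read against 16.8% and 14.0% of all genes compared. Their median difference was -0.25, against -0.043 for all genes. Of the kinetochore and checkpoint genes 9 of 34 were lower, led by ZWINT (-0.94), a kinetochore scaffold partner, MAD2L1 (-0.89), the checkpoint protein that holds CDC20, and CENPI (-0.80). In the list of spindle, motor and cytokinesis genes 7 of 27 were lower. Furthest were ARL6IP1 (-0.88), which is not itself a spindle, motor or cytokinesis protein, TROAP (-0.81) and the cytokinesis motor KIF20A (-0.78). The condensin and cohesin genes gave 3 of 15, a share near the 16.8% of all genes, namely CDCA5 (-0.80), NCAPH (-0.66) and NCAPG2 (-0.52). The APC/C genes gave 4 of 15, with the inhibitor FBXO5 at -0.72, ANAPC10 at -0.70 and ANAPC13 at -0.65.

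Transcription factors of the mitotic programme gave 6 of 18 lower, with NFYC (-0.82), a subunit of the CCAAT-binding NF-Y, and TFDP1 (-0.74), a partner of E2F proteins. TFDP2, a second E2F partner, was the furthest of that list and was higher: it stood at 38.5 CPM with DMSO, 76.5 with 13cRA, 37.7 with doxazosin and 57.8 with both drugs, a 13cRA difference of 0.97. The other 4 higher genes, named after their values were seen, were UBE2S (0.64), which extends ubiquitin chains for the APC/C, ASPM (0.56), a spindle pole protein, CIT (0.50), the citron kinase of cytokinesis, and the motor KIF18A (0.50). Of these 5, TFDP2 (9857 bases), ASPM (10887) and CIT (8708) have long transcripts, and UBE2S (2548) and KIF18A (3568) do not. The entry brakes and phosphatases gave 2 of 13 lower, no more than that 16.8%, namely PPP1CA (-1.03) and PPP1CB (-0.62), 2 catalytic subunits of protein phosphatase 1, with ARPP19 next (-0.41). NIFK, a protein that binds Ki-67, stood at 96.9 CPM with DMSO, 84.7 with 13cRA, 108 with doxazosin and 105 with both drugs and did not share the high 13cRA level of MKI67. In 20 DNA replication genes, taken as a reference for S phase, 11 were lower with 13cRA past the fold (median -0.53), with MCM2 at -1.32, EXO1 at -1.02 and RRM2 at -0.98.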

How the data were processed

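Single CHP134 cells from 4 samples, 1 per treatment, were measured by full-length RNA sequencing on a nanowell chip. The table the authors deposited holds whole-number read counts, not normalized, for 60651 Ensembl IDs in 1287 cells, and its column names give each cell's treatment and a running number, not a barcode. Per the submitters' processing notes, the tools were STAR 2.7.8a, featureCounts, fastp 0.23.3, Seurat 4.3.0 and bcl2fastq, and the builds named are GRCh38.p13 and GRCh37, without their roles. Which annotation, strand setting, filters and treatment of shared reads applied is not given in the sources used here.

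The members and lists, and the rule for genes named outside the members (the 3 furthest from DMSO with 13cRA in each list, NIFK, and the 5 closest to MKI67 over cells), were chosen with earlier results of these data known. Symbols were found for 60437 IDs. Cells with at least 500 genes and at most 25% mitochondrial counts were kept (1197) and thinned without replacement to 34000 counts, the 10th percentile rounded down to 1000, so 1082 cells entered. Thinned counts were summed per sample, scaled to 1000000 and compared as log2 ratios with a pseudocount of 1 CPM, for genes with a mean of at least 10 CPM over the 4 samples. No doublet caller was run, since wells were chosen by imaging. No test was run, because each treatment has 1 sample and cells are not replicates. Reads without molecular identifiers are not independent molecules. Transcript lengths, GC content, exon overlaps and gene positions come from GENCODE 29 and promoters from RefSeq on GRCh38.p14. RefSeq is not known to be the annotation behind the counts. For MKI67 and other members the ID versions of the counts differ from GENCODE 29, so that release is not behind them. Scripts were tested on simulated data. Python 3.11.15 (numpy 2.4.6, pandas 2.3.3, scipy 1.17.1) and R 4.3.3 were used, with edgeR 4.0.16 for TMM factors and DESeq2 1.42.0 for size factors. Alternatives were unthinned sums, means of per-cell CPM, other depths and a second seed, both sets of factors, a pseudocount of 5, other cell filters and gene windows, leaving out the highest 5% of cells, no filter on low genes, a fold of 1 and CPM over nuclear-encoded genes, the last chosen after seeing the data.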

Additional observations from a re-analysis of the deposited data

How the results depend on the processing

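The MKI67 difference of 13cRA from DMSO (0.57) was above 0 in all 16 settings run for it, the reported one included, from 0.38 to 0.71. It was 0.71 without thinning, 0.70 as a mean of per-cell CPM, 0.40 at 60000 counts per cell, 0.43 with TMM factors and 0.38 in cells with up to 120000 counts. It ranked first among the members except at 60000 counts (2), in cells with up to 120000 counts (2) and in the gene window (14). The members' median for 13cRA against DMSO (-0.26) was -0.42 at 60000 counts and 0.30 in the window of 4000 to 4600 genes, which turned its sign, and the count of lower members (15) was 2 in that window and 3 at a log2 fold of 1. For the combination against 13cRA, the 10 higher members became 5 with per-cell CPM, 16 at 60000 counts, 18 with TMM factors, 17 with DESeq2 size factors, 0 in the window, 16 in cells with up to 120000 counts, 17 without the highest 5% of cells, 0 at a fold of 1 and 6 with CPM over nuclear-encoded genes, which was chosen after seeing the data. Its median (0.33) was 0.12 with per-cell CPM and -0.68 in the window. In the window the combination's medians were -0.38 against DMSO and -0.41 against doxazosin. The doxazosin median (-0.037) was -0.13 without thinning and 0.14 in cells with up to 120000 counts. Of the summary values under alternatives, 110 stayed near the value reported and 24, given here, moved; of the values for single genes, ranks and the other counts of members, 276 stayed and 77 moved. Among those counts, members lower with the combination than with DMSO (1) were 0 to 13, lower than with doxazosin (0) up to 13 and lower than with 13cRA (1) 0 to 24. Members higher with 13cRA than DMSO (1) were 0 to 13, and with doxazosin against DMSO (1 lower, 0 higher) 0 to 6 were lower and 0 to 5 higher. Outside the gene window, the share of all genes compared was not counted under these alternatives. The causes were not tested, except that a higher fold leaves fewer genes by construction. No paired analysis was possible because the labels give no replicate numbers and each treatment has 1 sample.

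Depth limits the low members most: CENPA, CDC25C, CDCA3 and HJURP rest on few counts, and NUSAP1 on fewer still. The cells below 34000 counts that were left out were mostly 13cRA cells, so the 13cRA values describe its deeper cells.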
